A study of Mus musculus with 30 samples.

Results

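The contractile genes that separate fast from slow skeletal muscle fibres were followed in mice with 1 or 2 copies of Ctcf. The set holds 10 genes chosen by name: the myosin heavy chains Myh1, Myh2, Myh4 and Myh7, the troponins Tnnt1, Tnnt3, Tnni1 and Tnni2, and the light chains Myl2 and Mylpf. All 10 were found among the 48709 genes of the deposited count tables, 6 of them fast (Myh1, Myh2, Myh4, Tnnt3, Tnni2, Mylpf) and 4 slow (Myh7, Tnnt1, Tnni1, Myl2). The study sequenced total RNA from brain, kidney, liver, muscle (quadriceps) and spleen of adult C57BL/6 mice. In each tissue 3 wild-type (WT) libraries, given as control in the labels, were set against 3 libraries of Ctcf haploinsufficient mice (Ctcf+/-, here Het), 30 libraries in all. Ctcf encodes a zinc-finger DNA-binding protein of chromatin architecture. How the Ctcf allele was made, and the sex and exact age of the mice, are not given in the sources used here.

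Skeletal muscle contracts when calcium binds the troponin complex on the thin filament and myosin heads of the thick filament then pull on actin. Each fibre builds this machinery from fast or slow isoforms: the slow fibre uses the heavy chain Myh7 with Myl2 and the slow troponins, while fast fibres use Myh2, Myh1 or Myh4, in order of rising contraction speed, with Mylpf and the fast troponins. Mouse limb muscles differ in their mix of fibres, and the quadriceps is mostly fast with slow fibres in its deep regions. A whole-tissue library averages over all fibres, so fewer fibres of a type and less RNA per fibre cannot be told apart.

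Depth was 49.82 to 131.6 M counts per library over the series and 86.07 to 103.7 M in muscle. The level of Ctcf in Het was 67.2% of WT in muscle and between 61.4% and 65.3% in the other tissues, and the groups did not overlap in any tissue (exact permutation p = 0.1, 2-sided, the smallest that 3 against 3 libraries can give). In edgeR's test adjusted over all genes, Ctcf passed in brain (adjusted p = 0.0259). It did not pass in muscle (0.25), kidney (0.107), liver (0.543) or spleen (0.914). The labelled tissues carried their own defining markers, with summed marker levels of 8303 to 8876 CPM (counts per 1 M counted fragments) in brain and 20220 to 26410 CPM in kidney. Several libraries also held transcripts of another tissue. Both kidney libraries numbered replicate 3 held muscle transcripts, as described below. The 5 kidney markers summed to 9.09 to 67.5 CPM in WT muscle and to 0.0986 to 5.46 CPM in Het muscle, and they were lower in Het without overlap for 4 of 5 markers, as were 6.26% of all tested genes. The 7 adipocyte markers summed to 184.4 to 343.7 CPM in WT muscle and to 382 to 705.7 CPM in Het muscle. All 7 had a higher fitted level in Het, 5 without overlap (5.91% of all tested genes), none of them was at 0 in any muscle library, and none passed edgeR's adjusted test (Plin1, a lipid droplet coat protein, had a log2 fold change of 2.19, adjusted p = 0.233; Adipoq, the hormone adiponectin, 2.06, adjusted p = 0.384). The part of these other cells in the results below was not tested.

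In the quadriceps the fast set was abundant, and Tnnt3, Mylpf, Myh4 and Tnni2 varied by at most 1.44-fold. Myh1 varied 2.08-fold and Myh2 5.28-fold. The slow set was scarce and varied several-fold over the libraries of both genotypes. The 6 fast genes took 11.7% to 14.1% of all counts and the 4 slow genes 0.0209% to 0.158%. Levels between genes are compared here per kilobase of merged exon length, after TMM scaling (edgeR's correction of library size). The highest mean over the 6 muscle libraries was that of Tnnt3, the fast troponin T that anchors the complex to tropomyosin, at 23800 ± 2160 CPM per kilobase (SD). Mylpf, the fast regulatory light chain, followed with 12840 ± 1520. Myh4, the heavy chain of the fastest fibres, was at 9677 ± 1120, and Tnni2, the fast inhibitory troponin, at 8351 ± 1040. The ranges of Mylpf and Myh4 overlapped (10800 to 15170 against 8569 to 11160), as did those of Myh4 and Tnni2 (6910 to 9943). Among slow genes, Myl2, the slow regulatory light chain, reached 107.8 ± 71.4 and Tnnt1, the slow troponin T, 97.95 ± 64.8. Myh7, the slow heavy chain, reached 34.11 ± 21.6 and Tnni1, the slow inhibitory troponin, 25.16 ± 16.6. The ranges of Myl2 and Tnnt1 overlapped, with Myl2 the higher in 4 of 6 libraries. Those of Myh7 and Tnni1 overlapped as well, though Myh7 was the higher in 6 of 6 libraries.

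**Figure D1:**
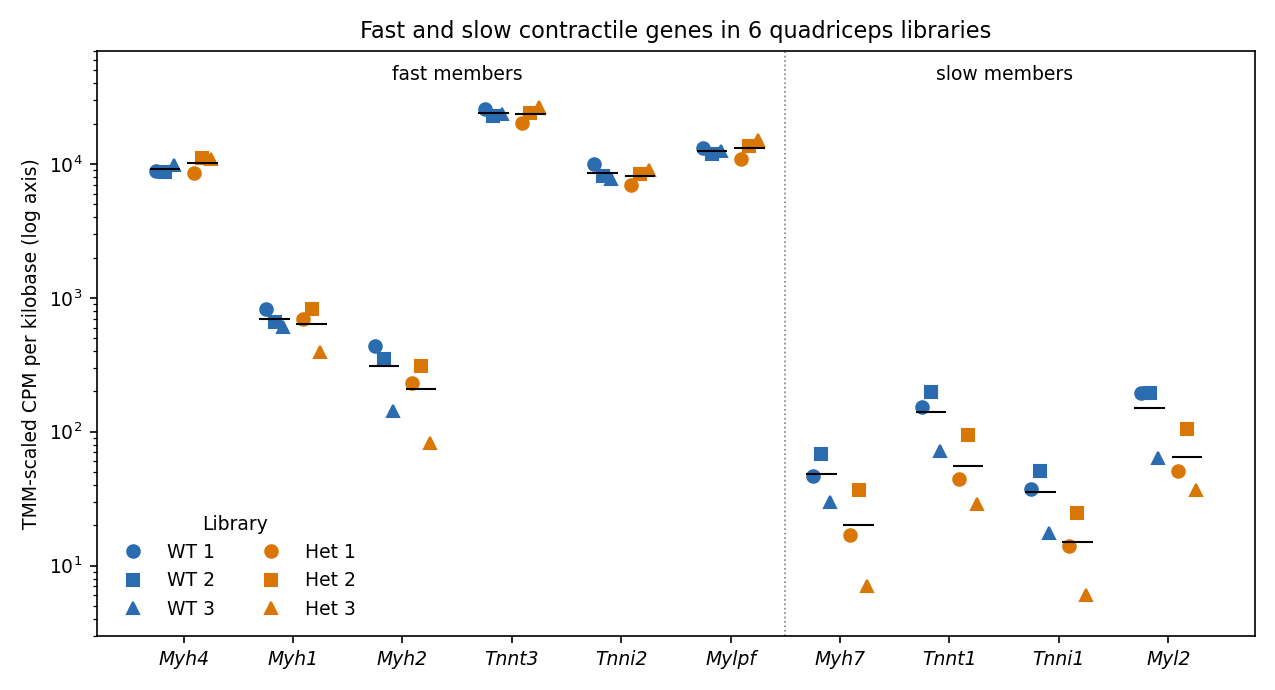
TMM-scaled CPM per kilobase (log axis) of the 10 genes in each of the 6 quadriceps libraries; the marker shape gives the replicate number, the colour the genotype, and the horizontal line each group's mean. Tnnt3, Mylpf, Myh4 and Tnni2 vary by at most 1.44-fold, while the 4 slow genes, Myh1 and Myh2 fall to their lowest value in Het replicate 3.

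Among the heavy chains, Myh4 held 87.2% to 95.7% of the summed level per kilobase of Myh1, Myh2, Myh4 and Myh7 in each library. Myh1, of fast fibres of intermediate speed, held 3.51% to 8.09%. Myh2, of fast oxidative fibres, held 0.729% to 4.26%, and Myh7 held 0.062% to 0.692%. The order Myh4, Myh1, Myh2, Myh7 was the same in all 6 libraries. These 4 genes share sequence with their relatives: of all stretches of 50 bases in the longest coding transcript, 26.7% of Myh1, 26.9% of Myh2 and 18.9% of Myh4 also occur in another gene of the family, mostly Myh1 or Myh2, and 22.2% of Myh7 occur in the cardiac heavy chain Myh6. Fragments that aligned to several genes were left out of the counts, so the levels of heavy chains are less certain than those of the troponins and light chains, which share at most 0.19%.

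Myh4 measured 53560, 52490 and 59470 CPM in the WT muscles and 51550, 67150 and 65080 CPM in the Het muscles. The Het values lay both below and above the WT values, so the groups overlapped. The fitted log2 fold change of Het over WT was 0.15 with a standard error (SE) of 0.159 (edgeR's quasi-likelihood test, adjusted p = 0.95). Tnnt3 was at 40410, 36200 and 37310 CPM in WT and at 32150, 38080 and 41900 CPM in Het. Its groups overlapped too, with a log2 fold change of -0.02 (SE 0.15 and adjusted p = 0.996 by edgeR). Mylpf (log2 fold change 0.08), Tnni2 (-0.09) and Myh1 (-0.13) also had overlapping groups, with edgeR adjusted p from 0.973 to 0.979. Myh2 spread more widely than the other fast genes. It was at 3107, 2488 and 1017 CPM in WT and 1650, 2227 and 588 CPM in Het, with replicate 3 the lowest of its genotype on both sides. Myh1 was also lowest in these libraries, at 3816 CPM in WT replicate 3 and 2524 CPM in Het replicate 3. The Myh2 groups overlapped, and the Myh2 log2 fold change of -0.57 (SE 0.515) had an edgeR adjusted p of 0.937.

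All 4 slow genes had a mean in Het of 39.7% to 42.4% of the WT mean, with overlapping groups. Myh7 was at 398.4, 582.4 and 256.8 CPM in the WT muscles and 146.3, 313.3 and 60.16 CPM in the Het muscles. WT replicate 2 was the highest library and Het replicate 3 the lowest, and Het replicate 2 exceeded WT replicate 3. Tnnt1 was at 334.9, 433.5 and 159 CPM in WT and 96.98, 206.7 and 64.12 CPM in Het. Its libraries fell in the same order as those of Myh7. Tnni1 was at 134.3, 184.7 and 62.77 CPM in WT and 50.58, 89.65 and 21.58 CPM in Het. Myl2 was at 380.8, 380.4 and 124.6 CPM in WT and 98.69, 205.4 and 71.64 CPM in Het. In both, WT replicates 1 and 2 stood highest and Het replicate 3 lowest, and Het replicate 2 lay above WT replicate 3.

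None of the 10 genes passed the test across all genes in muscle, where 0.0249% of the 16064 genes tested were called (4 genes, adjusted p under 0.05). Ctcf itself was not called there (edgeR adjusted p = 0.25), so a missing call does not show an unchanged level. The fitted log2 fold changes were -1.25 for Myh7 (SE 0.541, edgeR adjusted p = 0.774) and -1.34 for Tnnt1 (SE 0.474, edgeR adjusted p = 0.647). They were -1.24 for Tnni1 (SE 0.524, edgeR adjusted p = 0.763) and -1.24 for Myl2 (SE 0.492, edgeR adjusted p = 0.714). All 4 slow genes and 0 of 6 fast genes thus had an unadjusted p under 0.05 and a lower level in Het, a mark that 2.78% of all tested genes met. DESeq2 and limma-voom called none of the 10 genes. With the replicate number as a block all 4 slow genes were called, as given in the closing section. By the correlation rule used, however, the numbers do not pair the muscle libraries, because the pair numbered 1 had r of 0.0814, under the 0.1 required. No member had groups apart, against 12.2% of all tested genes. Since the 4 slow genes followed the same libraries up and down, they are not 4 separate observations of the genotype.

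The spread over the 6 muscle libraries, which includes the difference between genotypes, was widest in the slow set, with Myh2 close to it. Over these libraries Myh7 varied 9.68-fold, Tnni1 8.56-fold, Tnnt1 6.76-fold and Myl2 5.31-fold from the lowest to the highest. Within the genotypes Myh7 ran from 256.8 to 582.4 CPM in WT and from 60.16 to 313.3 CPM in Het. The SD of log2 CPM was 1.01 to 1.17 for these genes, larger than that of at least 99.6% of the 6673 genes with a mean of 10 CPM or more, whose median SD was 0.142. Myh2 had an SD of 0.902 and Myh1 of 0.391, larger than that of 99.4% and 94% of the same genes. Myh4, Tnnt3, Tnni2 and Mylpf had SDs of 0.134 to 0.179, close to the median gene. Averaged over the 4 slow genes and centred, the log2 level was 0.929, 1.27 and -0.175 in WT and -0.718, 0.3 and -1.61 in Het.

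The ratio of the summed fast to the summed slow level per kilobase gives 1 value per mouse. It was 136.6, 102.8 and 296.6 in the WT muscles and 378, 223.9 and 785.3 in the Het muscles. Het replicate 2 lay below WT replicate 3, so the groups overlapped, and the whole range was 7.64-fold. On the log2 scale the mean was 7.33 ± 0.791 in WT and 8.66 ± 0.909 in Het (SD, n = 3 each), a difference of 1.33. The difference is larger than either SD, but 1 library of each group crosses. No p is given for this ratio, because its genes were chosen with results of these data known. The 4 matched pairs ran alike. The heavy chain ratio, Myh1, Myh2 and Myh4 over Myh7, was 219, 143.6 and 355.4 in WT and 557.4, 337 and 1612 in Het. The Het minus WT difference of the log2 ratio was 1.59 for the heavy chains, 1.36 for troponin T, 1.24 for troponin I and 1.28 for the regulatory light chains, and all 4 pairs overlapped between genotypes. Without Het replicate 3 the difference of the overall log2 ratio was 0.855, and without WT replicate 3 it was 1.77. The ratio without both replicate 3 libraries differed by 1.30.

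**Figure D2:**
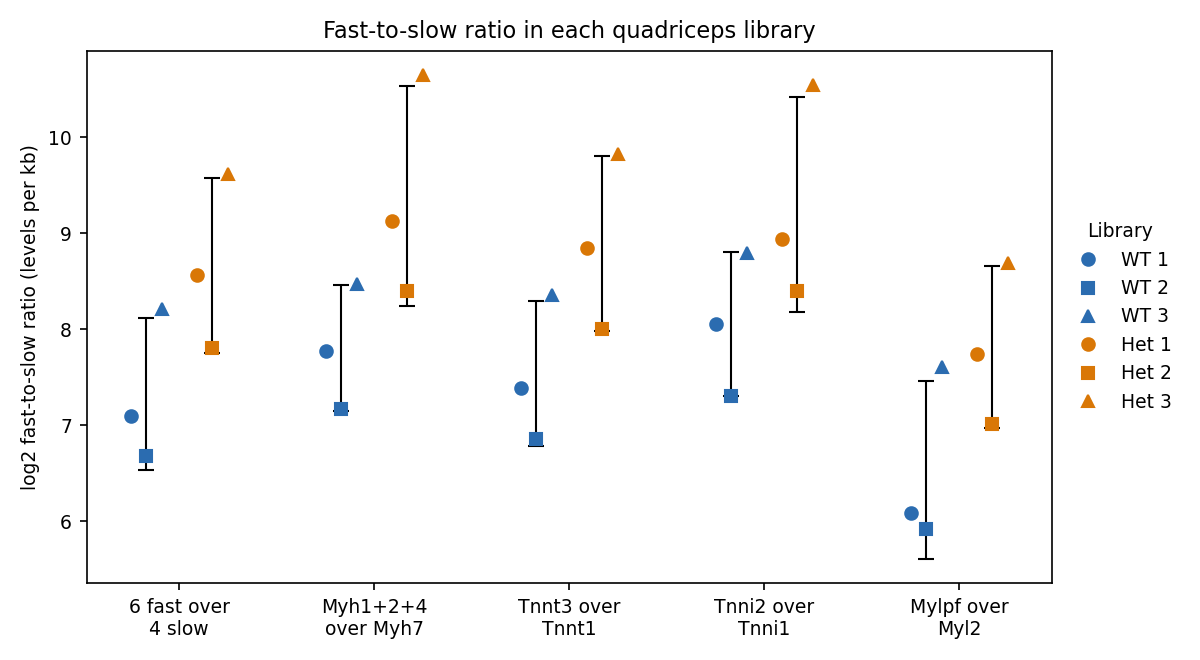
Log2 ratio of fast to slow levels per kilobase in each quadriceps library, for the sums of all 10 genes and for 4 matched pairs; points are libraries, and the black bars span the group mean ± 1 SD (n = 3). The WT libraries run from 6.68 to 8.21 and the Het libraries from 7.81 to 9.62 for the overall ratio, with Het replicate 2 below WT replicate 3 in every pair.

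Other genes of the slow programme moved with the 4 slow members. By root mean square difference of centred log2 CPM over the 6 libraries, among 162 genes of similar spread, the nearest was Tnnc1, the slow troponin C that binds calcium, at 0.058. It was closer to the slow average than any single slow member (0.0912 for Tnnt1 to 0.215 for Myl2). Tnnc1 was at 217, 248.9 and 95.6 CPM in WT and 63.44, 124.1 and 35.55 CPM in Het. Tpm3, slow tropomyosin, followed at 0.197. Then came Myl3, a slow essential light chain, at 0.245, Atp2a2, the slow calcium pump of the sarcoplasmic reticulum, at 0.287, and Myoz2, a Z-disc protein, at 0.348. The 3 genes nearest to Myh2 were Myom3, an M-band protein, at 0.178, Myoz2 at 0.197 and Smtnl1 at 0.209. Ano6, at 0.0449, and Tsr3, at 0.0548, were among the 3 nearest to Myh4, but Myh4 itself varied with an SD of 0.165 only, and 5743 genes were candidates.

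Of 12 further slow-fibre genes, 11 had a fitted level below WT in Het, with a median log2 fold change of -0.70 against -0.0075 over all tested genes. None passed the adjusted test, and none had groups apart, against 12.2% of all tested genes. At an unadjusted p under 0.05, 4 were lower in Het, as were 2.78% of all tested genes. Those 4 were Tnnc1 (-1.33), Myl3 (-1.21), Tpm3 (-1.09) and the oxygen-binding Mb (-0.64), with edgeR adjusted p of 0.65 to 0.764; they were named after their values were seen. Mybpc1 stood at 0.05 (edgeR adjusted p = 0.995). Of 12 further fast-fibre genes, 6 lay above and 6 below WT, with a median of -0.01 and 0 at an unadjusted p under 0.05, against 6.45% of all tested genes. Tnnc2, the fast troponin C, was at about 3.91 CPM in WT muscle, but 74% of its exon bases overlap Ube2c and fragments over both genes were not counted, so its level is uncertain. Of 15 sarcomere genes listed as shared by fibres, 3 lay above and 12 below WT, with a median of -0.06. Not all were even across the muscle libraries. Myom3 varied 5.77-fold and Actn2 3.26-fold, and the rest of the list at most 1.64-fold. Des, the intermediate filament desmin, was the 1 of these 15 with groups apart, where 6.26% of all tested genes were lower in Het without overlap: 3579, 3062 and 3162 CPM in WT against 2781, 2913 and 2997 CPM in Het (log2 fold change -0.17, edgeR adjusted p = 0.89). Acta1, skeletal actin, was at 37330 ± 1311 CPM in WT and 36640 ± 3448 CPM in Het.

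The developmental and cardiac list showed where other isoforms stood. Of its 10 genes 8 were tested, 6 below and 2 above WT, with a median of -0.17. Actc1, the cardiac actin of immature muscle, was at 1007, 1920 and 1580 CPM in WT and 1603, 3811 and 4025 CPM in Het. Its groups overlapped and its log2 fold change of 1.07 had an edgeR adjusted p of 0.624; it was named after its values were seen. The embryonic heavy chain Myh3 and the neonatal Myh8 had means of 4.59 and 4.94 CPM in WT and 2.66 and 4.39 CPM in Het. Of the cardiac markers, Myl7 had 0 counts in all 6 muscle libraries and Nppa and Nppb had at most 5 and 1 counts. Myh6 ran from 1.12 to 5.64 CPM.

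**Figure D3:**
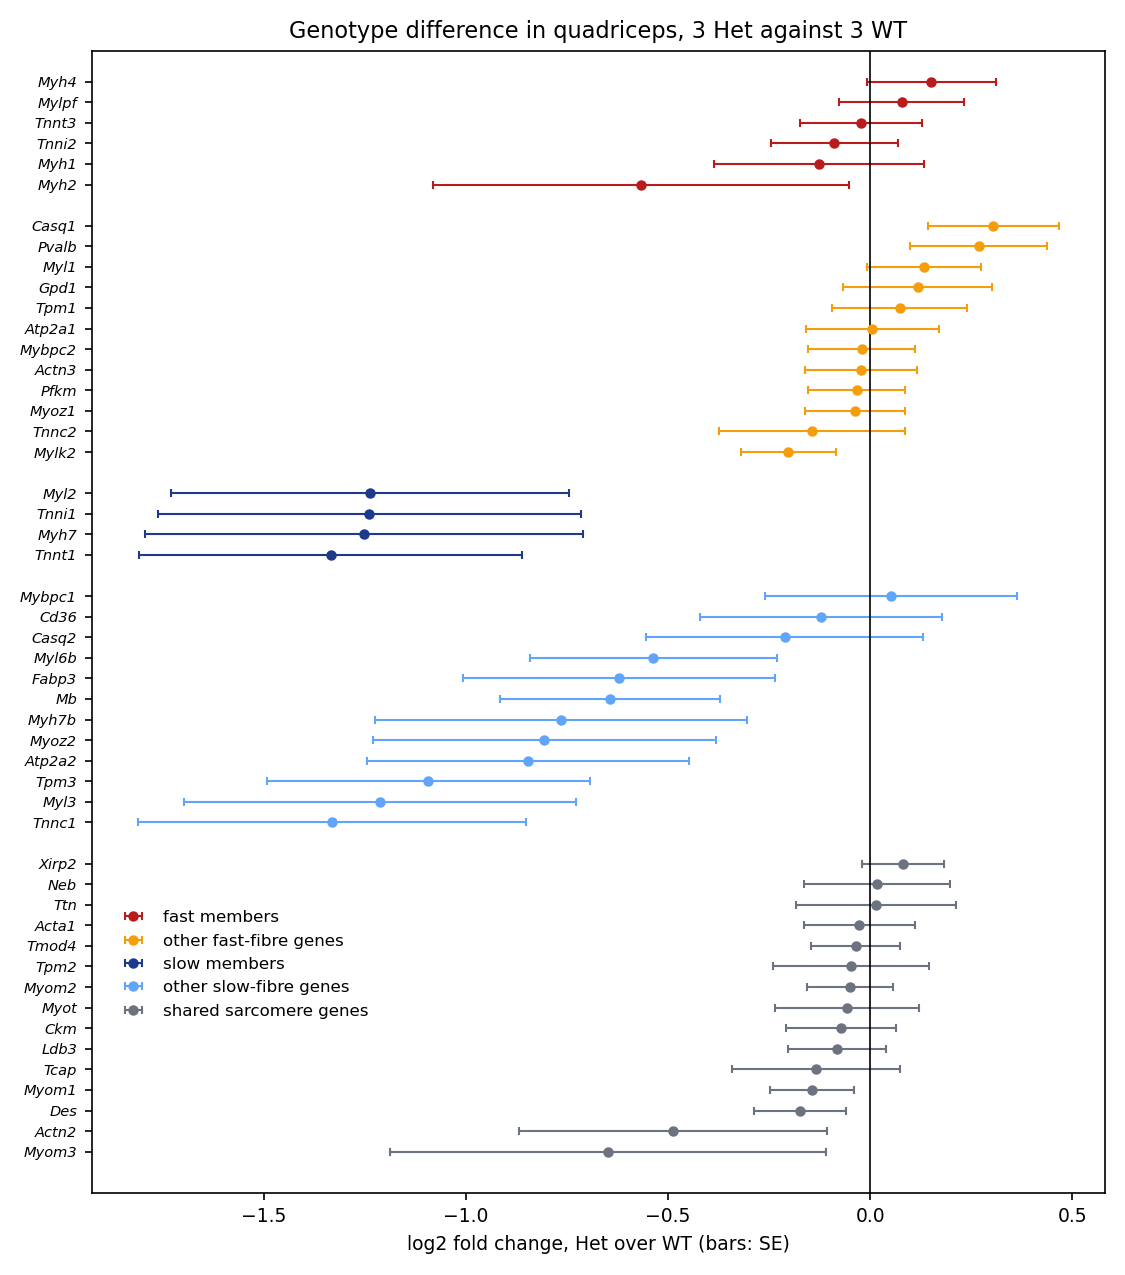
Fitted log2 fold change of Het over WT in quadriceps with its standard error (bars), for the fast and slow members, the other fast-fibre and slow-fibre genes and the sarcomere genes listed as shared by fibres. The 4 slow members lie between -1.34 and -1.24, and the fast members between -0.57 and 0.15, and no gene shown passed the adjusted test.

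Where the members sit in the genome and what lies upstream was read from the annotation. Myh2, Myh1 and Myh4 are neighbours on the plus strand of chromosome 11, at chr11:67171027-67197517, chr11:67200052-67224575 and chr11:67238029-67260446 (GRCm38), with gaps of 2.54 and 13.5 kilobases. Tnni2 (chr7:142441808-142444410) and Tnnt3 (chr7:142498836-142516009) lie 54.4 kilobases apart on chromosome 7, and Tnnt3 ends 59.5 kilobases before H19. The other members are at chr14:54970688-54994634 (Myh7), chr7:4504570-4516382 (Tnnt1), chr1:135779434-135810989 (Tnni1), chr5:122100951-122113472 (Myl2) and chr7:127208890-127214298 (Mylpf). The gene-level tables count exons of all transcripts and do not separate isoforms. Exons of Myh1 overlap the antisense gene Myhas over 8.11% of their length, and exons of Myh7 overlap Mhrt and Gm29015 over 7.05%. Because fragments in overlaps with another gene were left out without regard to strand, these genes lose part of their counts.

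The 250 bases upstream of the start are shown for 3 slow members and Tnnc1, which rose and fell together across the muscle libraries, and for Myh4 as the leading fast gene. They are RefSeq windows on GRCm38.p6, printed 5′ to 3′ along the gene's strand, and capitals mark E-boxes (CANNTG), the sites bound by myogenic helix-loop-helix factors. The windows are chr14:54994627-54994876 (minus strand) for Myh7, chr7:4515976-4516225 (minus) for Tnnt1, chr1:135799171-135799420 (plus) for Tnni1, chr14:31208062-31208311 (plus) for Tnnc1 and chr11:67237562-67237811 (plus) for Myh4. The start used for Tnni1 lies 19987 bases from the 5′ end of the gene in the deposited tables, and among the members counted for motifs below, that of Myl2 lies 7762 bases and that of Mylpf 2718 bases from it.
Myh7: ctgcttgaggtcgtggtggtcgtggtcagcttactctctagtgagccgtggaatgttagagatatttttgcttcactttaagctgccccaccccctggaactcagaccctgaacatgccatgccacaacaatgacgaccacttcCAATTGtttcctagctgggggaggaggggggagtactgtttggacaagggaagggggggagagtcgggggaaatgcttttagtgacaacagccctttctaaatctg
Tnnt1: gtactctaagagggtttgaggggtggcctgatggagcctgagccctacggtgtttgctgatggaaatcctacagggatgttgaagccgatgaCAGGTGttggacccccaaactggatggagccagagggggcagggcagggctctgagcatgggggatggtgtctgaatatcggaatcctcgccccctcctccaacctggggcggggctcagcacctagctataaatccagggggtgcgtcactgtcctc
Tnni1: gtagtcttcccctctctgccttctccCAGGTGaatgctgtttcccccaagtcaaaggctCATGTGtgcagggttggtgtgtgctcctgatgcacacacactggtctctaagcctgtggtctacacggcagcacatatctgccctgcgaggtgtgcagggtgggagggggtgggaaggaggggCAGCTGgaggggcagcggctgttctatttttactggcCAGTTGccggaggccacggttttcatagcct
Tnnc1: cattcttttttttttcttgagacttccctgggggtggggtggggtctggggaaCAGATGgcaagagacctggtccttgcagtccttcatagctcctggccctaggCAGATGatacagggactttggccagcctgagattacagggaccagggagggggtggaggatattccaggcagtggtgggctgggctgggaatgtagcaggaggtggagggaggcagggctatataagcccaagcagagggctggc
Myh4: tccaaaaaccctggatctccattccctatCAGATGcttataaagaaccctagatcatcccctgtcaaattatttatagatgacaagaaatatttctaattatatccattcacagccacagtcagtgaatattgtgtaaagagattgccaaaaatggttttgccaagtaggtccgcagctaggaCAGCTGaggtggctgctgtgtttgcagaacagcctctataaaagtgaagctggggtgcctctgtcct
The Tnni1 window held 4 E-boxes, Tnnc1 and Myh4 held 2 each, and Myh7 and Tnnt1 held 1 each. Promoters were in the table for 8 of the 10 members, and 6 of those 8 held at least 1 E-box, as did 66.2% of all 32851 promoter windows of that length. CATTCC, the MCAT motif, was in 3 of 8 (Myh7, Myh1 and Myh4) against 12.6% of all windows, and also in Tnnc1. TATAAA was in 4 of 8 (Tnnt1, Myl2, Myh1 and Myh4) against 12.4%. The MEF2 motif was in 0 of 8 against 0.508% in its strict form, which starts with C and ends with G. In a looser form that also allows T first and A last it was in 2 of 8 (Myh1 and Myh4) against 2.92%. The CArG motif was in 1 of 8 (Myh4) against 1.47%, and CATACC in 1 of 8 (Myl2) against 5.19%. Both strands were searched, and the looser MEF2 match of Myh1 and that of Myh4 each overlapped a TATAAA on the opposite strand. No other match overlapped a match of another motif in the members' windows. A match describes letters only and was set against no binding data. Tnnt3 and Tnni2 had no window in the table.

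Outside muscle the members were traces, with a pattern for each tissue. Levels were scaled within each tissue, so CPM values of different tissues can be compared only roughly. In WT, all 10 genes were higher in muscle than in each of the 4 other tissues (40 of 40 comparisons, edgeR adjusted p of at most 0.000869, lowest log2 fold change 5.72). Over all 22933 tested genes, 32.5% were called higher in muscle than in brain, 28.5% than in kidney, 32.3% than in liver and 37.2% than in spleen. The 4 comparisons share the muscle libraries. All 40 were also called without the WT kidney library of replicate 3.

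**Figure D4:**
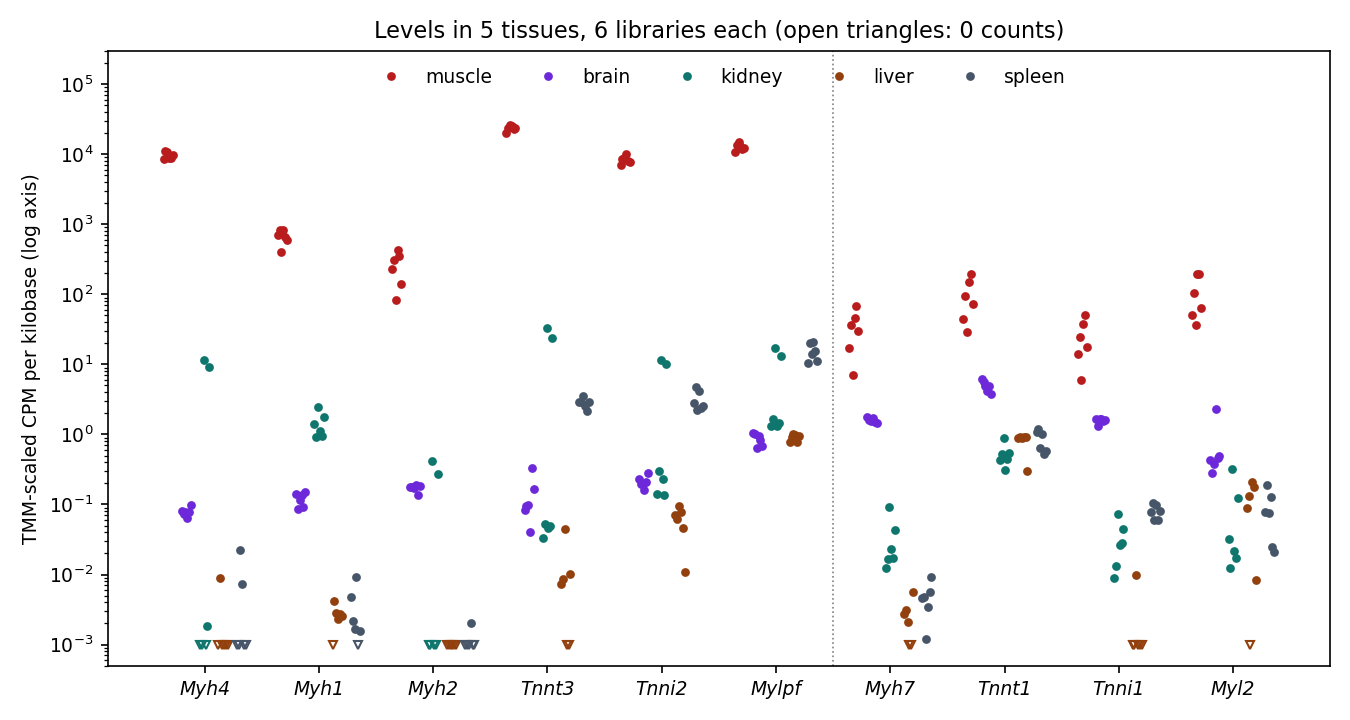
TMM-scaled CPM per kilobase (log axis) of each gene in the 6 libraries of each tissue, both genotypes together; open triangles at the bottom mark libraries with 0 counts. Every gene is highest in muscle, the slow genes come next in brain, and 2 kidney libraries stand apart for the fast genes.

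In brain the slow genes outweighed the fast ones in sum. The fast-to-slow ratio per kilobase was 0.156 to 0.215 over the 6 brain libraries, where muscle had 103 to 785. Slow exceeded fast in every brain library for the heavy chain, troponin T and troponin I pairs. The light chain pair mostly went the other way. Mylpf over Myl2 was 0.415 in WT replicate 1 and 1.38 to 3.62 in the other brain libraries. Myh7 ran from 12.4 to 15.3 CPM in brain, and its range did not overlap that of any other tissue. Tnnt1 (8.21 to 13.7 CPM) and Tnni1 (4.74 to 6.07 CPM) likewise came second after muscle without overlap with the tissue that followed. The fast members stayed low in brain, with means from 0.215 CPM for Tnnt3 to 1.24 CPM for Myh2.

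Tnnt1 in brain was at 9.2, 10.69 and 8.21 CPM in WT and at 13.73, 12.19 and 10.69 CPM in Het. The groups touched without overlapping, Het being higher, with a log2 fold change of 0.38 (SE 0.13, edgeR adjusted p = 1). Myl2 in brain was at 4.43, 0.894 and 0.969 CPM in WT and 0.833, 0.55 and 0.726 CPM in Het, lower in Het without overlap (log2 fold change -1.60, edgeR adjusted p = 1). WT replicate 1, with 279 Myl2 counts against 48 to 72 in the other 5, stood apart, and without it the log2 fold change was -0.41. The summed cardiac markers were also highest in that library (6.16 CPM), and their part was not tested. Groups were apart for 2 of 10 members in brain, against 7.83% of all tested genes, and 0 of 10 were called, against 0.0157% (3 genes; 22 with the replicate number as a block, none of them a member).

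In kidney the 2 libraries numbered replicate 3 differed from the other 4. Myh4 had 5478 counts in WT replicate 3 and 6898 in Het replicate 3, but 0 or 1 in the other kidneys. Tnnt3 had 3761 and 5233 counts there against 5 to 7 elsewhere, and Tnni2 1495 and 1710 against 18 to 37. Myh2, Mylpf and the slow genes were also highest in these libraries. Taken as the level above the mean of replicates 1 and 2 of the same genotype, the excess of the 6 fast genes was 0.0916% to 0.12% of their mean muscle level in WT and 0.12% to 0.189% in Het. For the 4 slow genes it was 0.0661% to 0.169% in WT and 0.23% to 0.41% in Het. Kidney and muscle levels were scaled separately, so all these percentages are approximate. The fast-to-slow ratio per kilobase of the excess was 180 in WT, inside the range of the 6 muscle libraries (103 to 785), and 87.8 in Het, below it. Its slow part rests on few counts. In WT replicate 3 Tnni1 had 16 counts, against 9 in each of replicates 1 and 2, and Tnnt1 had 118 against 66 and 87. Where these ratios stand against the muscle range is therefore uncertain. The 15 sarcomere genes listed as shared by fibres had a median excess of 0.0956% in WT (range 0.000222% to 0.464%) and 0.127% in Het (range 0.0686% to 0.244%). Myom2 gave the lower and Myom3 the upper end of both ranges. Acta1, Ckm and Xirp2, muscle genes named after their values were seen, lay at 0.0952% to 0.0985% in WT and 0.105% to 0.124% in Het. The replicate number is shared by the 2 libraries. Its relation to dissection, extraction or sequencing is not given in the sources used here.

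**Figure D5:**
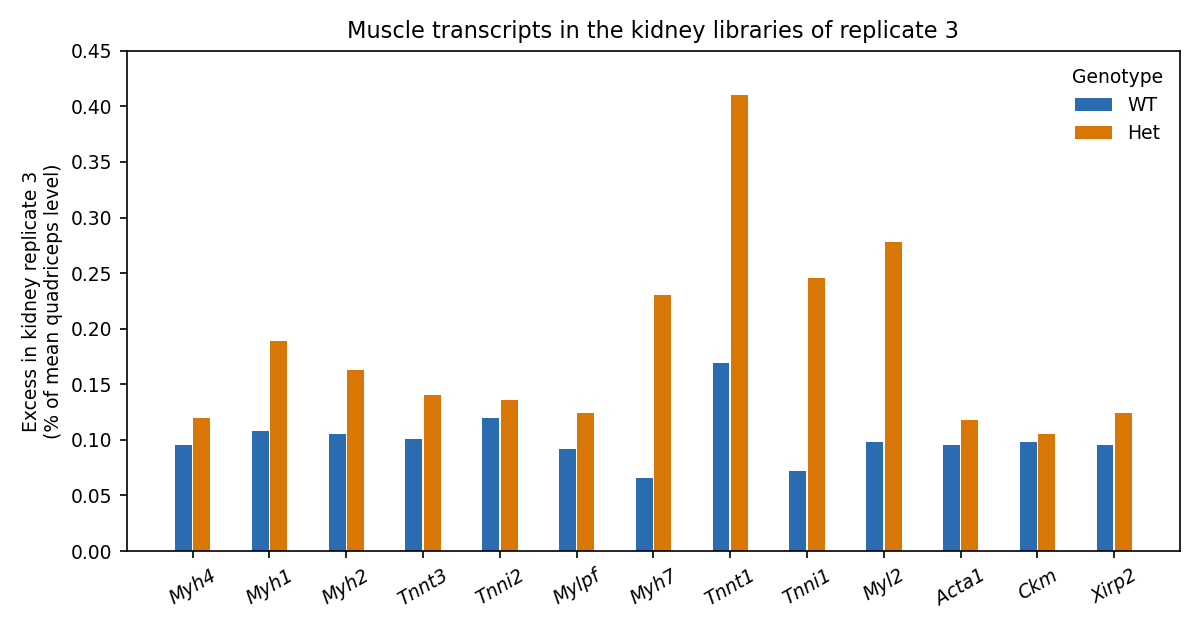
Level in each kidney library of replicate 3 above the mean of replicates 1 and 2 of the same genotype, as a percentage of the gene's mean quadriceps level. Each tissue was scaled separately, so the percentages are approximate. Acta1, Ckm and Xirp2 were chosen after their values were seen. In WT the fast members lie between 0.0916% and 0.12%; in Het they lie between 0.12% and 0.189%, and the slow members between 0.23% and 0.41%.

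Apart from these libraries, kidney carried little of the set except Myh1. Myh1 was at 7.02 and 5.98 CPM in WT replicates 1 and 2 and at 9.04 and 5.86 CPM in Het replicates 1 and 2, where Myh4 and Myh2 were at 0 or 0.0113 CPM. In kidney a count of 0 allows a level of 0.0303 to 0.0359 CPM (3 counts). Myh1 is the member whose exons overlap the antisense gene Myhas over 8.11% of their length, and fragments touching that overlap were not counted. Myh4, Myh2, Tnnt3, Tnni1 and Myl2 did not pass the filter on low counts in kidney and were not tested between genotypes. Of the other 5, 0 were called, against 0.0211% of 18937 genes (4 genes; 21 with the replicate block, none a member). The log2 fold changes of Tnni2 (0.19, SE 1.71) and Mylpf (0.36, SE 1.12) rest on the replicate 3 libraries, and without the Het one they were -4.02 and -1.83. No genotype difference of the fast genes can be read from these kidneys.

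Spleen held some fast genes other than heavy chains. Mylpf was at 21.88, 16.27 and 11.76 CPM in WT and 11.29, 21.43 and 14.73 CPM in Het spleen. Tnnt3 (3.4 to 5.55 CPM) and Tnni2 (3.37 to 7.07 CPM) were also present in all 6 libraries, whereas Myh1, Myh2 and Myh4 had at most 13 counts. These 3 fast genes therefore appeared in spleen without the heavy chains that accompany them in muscle. Their groups overlapped, with log2 fold changes of -0.07, 0.29 and 0.11 and an edgeR adjusted p of 1 for each. Tnnt1 ran from 1.17 to 2.6 CPM in spleen and Tnni1 from 0.216 to 0.372 CPM. None of the 6 members tested there (Tnnt3, Tnni2, Mylpf, Tnnt1, Tnni1 and Myl2) was called, against 0.242% of 18615 genes. The 5 kidney markers summed to 0.0841 to 0.379 CPM in WT spleen and 10.6 to 22.08 CPM in Het spleen, and 3 of the 5 were called higher. The 5 liver markers summed to 32.77 to 42.09 CPM in WT spleen and 0.08996 to 0.3443 CPM in Het spleen, and all 5 were called lower. The part of this material in the spleen values was not tested.

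In liver 7 of the 10 members had their lowest mean CPM of the 5 tissues, the others being Mylpf, Tnnt1 and Myl2. With levels scaled within each tissue this rank is approximate. In the WT fit across tissues Myh1 was at a log2 fold change of 0.77 for liver over spleen (edgeR adjusted p = 0.548). Mylpf (0.817 to 1.07 CPM) and Tnnt1 (0.655 to 2.04 CPM) were found in all 6 libraries, while Myh2 had 0 counts in all of them and Myh4 had counts (4) in 1 library only. A count of 0 in liver allows a level of up to 0.0348 to 0.0534 CPM. Mylpf, Tnnt1 and Myl2 were tested between genotypes, with log2 fold changes of 0.01, 0.34 and -0.79 and an edgeR adjusted p of 1 each. None was called, against 0.0193% of 15584 genes.

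Whether the genotype difference itself varied between tissues was tested over all 30 libraries. The labels do not say which libraries of different tissues come from 1 mouse, and the fits across tissues treated all libraries as independent. This interaction was called for 0.758% of 24262 genes and for none of the 10 members. Tnnt1 had the smallest p among them (edgeR adjusted p = 0.469); its fitted log2 fold change was -1.34 in muscle and 0.38 in brain. The other 9 had an adjusted p of 1.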

How the data were processed

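The deposited values are raw counts per gene for 30 libraries, in 1 table per tissue. Per the file headers, the authors used featureCounts 1.5.0-p3 with the Ensembl release 86 annotation of GRCm38. Exons were counted without strand, and neither multiply aligned fragments nor fragments touching exons of more than 1 gene were counted. STAR, FastQC and DESeq2 are named without versions in the submitters' processing notes. The read length is not given in the sources used here. Gene coordinates are those of the tables.

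Each tissue's 6 libraries had a fit of their own in edgeR 4.0.16 in R 4.3.3 (filterByExpr, TMM scaling, quasi-likelihood test, Benjamini-Hochberg adjustment over all tested genes, calls at an adjusted p under 0.05). Levels are TMM-scaled CPM, divided by the tables' merged exon length in kilobases where genes are compared. The scaling was done within each tissue, so levels of different tissues are not on a common scale. WT tissues and the genotype by tissue interaction were tested in fits of 15 and 30 libraries, with libraries taken as independent. The design text gives 3 mice per genotype. No pair of replicates differed by as little as sampling noise. The test was checked on simulated counts with a fixed spread well below that of the slow members, so the check does not cover genes that vary as they do. The 10 members, the lists and the tests were chosen with earlier results of these data known. Named are all members, Ctcf, genes of the 4 fibre lists called in muscle or else (up to 4) with groups apart there and a mean of at least 1 CPM, the 5 genes nearest to the slow profile and 3 each for Myh2 and Myh4, and up to 2 markers of a cell type that moved with a result; others are said to be named after their values were seen. A gene that the rule names is not reported here. Motifs were chosen after the data were seen.

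Same-numbered WT and Het libraries deviated together in brain (r of 0.311 to 0.674) and kidney (0.231 to 0.301), every pair above 0.1 on log2(CPM + 1), so the numbers were taken to pair libraries there, and blocked counts stand beside the others. Alternatives were DESeq2 1.42.0, limma-voom (limma 3.58.1), other scalings and filters on low counts, the 30-library fit, the replicate block and leaving out each library. The floor of 3 counts covers counting error only.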

Additional observations from a re-analysis of the deposited data

How the results depend on the processing

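In muscle 4 genes were called, against 159 with DESeq2, 2 with limma-voom, 66 with all genes of at least 1 count, 229 in the fit of all 30 libraries, 2 without both replicate 3 libraries and 1 to 2 without any single library. In brain 3 genes were called, against 28 with DESeq2, 6 with the looser filter, 1 in the 30-library fit and 0 to 1 without any single library. In kidney 4 were called, against 175 with DESeq2, 45 with the looser filter, 2 with at least 10 counts in every library, 13 in the 30-library fit, 24 without both replicate 3 libraries and 3 to 56 without single libraries (56 without Het replicate 3, 9 without Het replicate 1). In liver 3 were called, against 72, 16 and 37 with DESeq2, the looser filter and the 30-library fit, and 1 to 17 without single libraries (17 without Het replicate 3). In spleen 45 were called, against 187, 97, 74 and 250 with DESeq2, limma-voom, the looser filter and the 30-library fit, 0 with at least 10 counts in every library and 0 to 29 without single libraries. The cause was not tested.

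With the replicate number as a block, 118 genes were called in muscle, 22 in brain, 21 in kidney, 7 in liver and 0 in spleen. In muscle the block called all 4 slow members: Myh7 (log2 fold change -1.48, edgeR adjusted p = 0.0191), Tnnt1 (-1.39, 0.0076), Tnni1 (-1.33, 0.00628) and Myl2 (-1.21, 0.042). Over all alternatives their adjusted p ran up to 0.978, 0.938, 1 and 1. The muscle numbers share no pairing by the rule used: same-numbered libraries had r of 0.0814, 0.358 and 0.474, the first under 0.1. Each Het muscle library had its highest r with the WT library of its own number. WT replicate 1, however, correlated better with Het replicate 2 (0.111). Brain, taken as paired, held such a case too. Its Het replicate 1 had r of 0.313 with WT replicate 2 and 0.311 with WT replicate 1. The block changed no other member's call in any tissue. Within the numbers the log2 fast-to-slow ratio was higher in Het by 1.47, 1.12 and 1.40. Over the alternatives that difference ran from 0.855 to 1.77.

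The slow members were lower in Het muscle under every alternative, at log2 fold changes of -2.01 to -0.84. Members with a small fold change reversed. Without both replicate 3 libraries, chosen after the data were seen, muscle Myh1 was at 0.0347, Mylpf at -0.0311 and kidney Myh7 at -0.478. In the 30-library fit, brain Myh4, Tnni2 and Tnni1 were at 0.0312, 0.0172 and 0.0085 and spleen Tnni1 at -0.00535. Spleen Tnni1 was also at -0.0028 with DESeq2 and -0.00112 with RLE scaling, and liver Mylpf at -0.0085 with limma-voom. Leaving out single libraries turned the sign of further members. In muscle the range was -0.36 to 0.131 for Myh1, -0.105 to 0.0867 for Tnnt3, -0.16 to 0.028 for Tnni2 and -0.0277 to 0.214 for Mylpf. In brain it was -0.335 to 0.0394 for Myh1, -0.0896 to 0.152 for Myh2, -0.17 to 0.12 for Myh4, -0.228 to 0.156 for Tnni2, -0.00369 to 0.144 for Myh7 and -0.117 to 0.0521 for Tnni1. In kidney it was -0.109 to 0.639 for Myh1, -4.02 to 4.44 for Tnni2, -1.83 to 2.28 for Mylpf and -0.937 to 1.02 for Myh7, the ends being the fits without the Het and without the WT library of replicate 3. In liver it was -0.088 to 0.108 for Mylpf and -0.0233 to 0.58 for Tnnt1, and in spleen -0.266 to 0.406 for Tnni2, -0.358 to 0.174 for Mylpf and -0.193 to 0.186 for Tnni1. All 40 comparisons of muscle with other tissues kept their call in every setting, and the interaction was called for 178 to 222 genes. With 1 library left out, the smaller group keeps 2 libraries.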
